A study of Homo sapiens with 12 samples.

Results

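The CBP inhibitor PRI-724 and the adenylyl cyclase activator forskolin were set directly against each other in NCI-H295R, an established human adrenocortical carcinoma line that makes steroid hormones. The comparison uses 6 of the 12 libraries of the series, 3 biological replicates per agent as the labels give them, and all 60617 genes of the count table. CBPi cells received 26 µM PRI-724 for 96 h, a dose the labels call the IC50. FSK cells received DMSO for 48 h and 10 µM forskolin for the next 48 h. The 3 baseline libraries, from cells in DMSO for 96 h, are given beside both as the vehicle level. A further 3 libraries, of cells in 62 µM EPZ-6438 for 96 h, are not compared here. They entered the gene filter, the scaling, the mean levels used as cutoffs and the estimate of spread. Members were taken by treatment label, with no measured value. The agents differed in dose and in hours of exposure as well as in kind, so compound, dose and time cannot be told apart. All cells were of 1 line, so p-values measure the spread between its replicate cultures. The line carries an activating mutation of CTNNB1, the gene of β-catenin, and makes several adrenal steroids.

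In the adrenal cortex the pituitary hormone ACTH binds the receptor MC2R, which raises cyclic AMP (cAMP) and activates protein kinase A (PKA). PKA phosphorylates transcription factors such as CREB, which recruit the histone acetyltransferases CBP and p300, and transcription of steroidogenic genes goes up. Forskolin raises cAMP with no need of the receptor. PRI-724 was made to block the contact between CBP and β-catenin, the effector of Wnt signalling, a pathway that maintains the outer adrenal cortex and is often active in adrenocortical carcinoma.

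Library totals were 20.6 to 28.8 megacounts for CBPi, 23.4 to 25.4 for FSK and 21.0 to 27 for baseline. Levels below are CPM, counts per megacount after TMM scaling. The groups lay apart on the first principal component (scores of -32.9 to -31.4 for CBPi, 65.3 to 69.8 for FSK and 9.5 to 14.7 for baseline). CBPi replicate 2 stood apart from its group. Its pairs had a chi-square per degree of freedom of 14.7 and 13.5, against 3.51 for the remaining CBPi pair and 4.38 to 5.79 for the FSK pairs, and its deviation from the group mean ran against GC content across genes (Spearman's rho -0.53, against 0.35 and 0.43 in CBPi replicates 1 and 3). Mitochondrially encoded genes took 4.11% ± 0.63 of counts in CBPi, 2.94% ± 0.29 in FSK and 2.74% ± 0.43 at baseline (SD, n = 3 each). The adrenocortical markers NR5A1, STAR, CYP11A1, SCARB1 and CYP21A2 were well detected in both groups. The markers CYP17A1, HSD3B2 and INHA were low in CBPi, with levels given below. Every one of these markers was lower in CBPi than in FSK. Of markers of other cells, PTPRC and CD3E (leukocytes), CDH5 (endothelium) and SLC18A1 (adrenal medulla) had no count in any CBPi or FSK library. Others too low to test had a few counts, such as ITGAM (4 summed over CBPi and 6 over FSK) and PECAM1 (3 and 7). Fibroblast markers summed to 75.3 to 83.7 CPM in CBPi, 47.2 to 48.6 CPM in FSK and 85 to 90.9 CPM at baseline. Of 8 tested, 4 were higher in CBPi and 2 lower, and PDGFRA and PDGFRB were too low to test. Leukocyte markers summed to 4.02 to 5.04 CPM in CBPi, 9.49 to 11.1 CPM in FSK and 11.4 to 13.4 CPM at baseline, with 2 of 4 tested lower in CBPi and 0 higher. Endothelial markers summed to 2.33 to 2.92 CPM in CBPi, 2.02 to 2.73 CPM in FSK and 1.62 to 2.37 CPM at baseline, with 2 of 5 tested higher in CBPi and 1 lower. Medulla markers summed to 5.86 to 6.59 CPM in CBPi, 5.3 to 5.74 CPM in FSK and 3.58 to 4.34 CPM at baseline, and neither of those tested, CHGA and HAND2, passed. Over all genes tested 29.3% were higher in CBPi and 29.5% lower, and counts from marker lists this short say little beside those shares. The part of these markers and of the mitochondrial share in the results was not tested. In bulk RNA, fewer cells of a type and less RNA per cell cannot be told apart.

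Most expressed genes differed between CBPi and FSK. Of 20360 genes tested, 11972 (58.8%) passed at an adjusted p of 0.05 (quasi-likelihood test of edgeR, adjusted by Benjamini and Hochberg's method), 5971 higher in CBPi (29.3%) and 6001 lower (29.5%). Without CBPi replicate 2 the count was 11745. The 3 libraries of each group did not overlap in 12523 genes (61.5%). By the same test 58.9% of genes passed in CBPi minus baseline and 50.6% in FSK minus baseline. Against a fold of 1.5, 3106 genes passed (15.3%), 1697 higher (8.33%) and 1409 lower (6.92%). The median log2 fold change over all genes was 0.0. The largest differences leaned the other way from the moderate ones. At 2-fold or more, 1484 fitted differences were higher in CBPi and 1173 lower, whereas at 16-fold or more 39 were higher and 72 lower. With shares this large, a list of genes is read below against 29.3% higher and 29.5% lower, and its count alone says little where it comes near them. These marks are somewhat low for the lists, which hold mostly protein-coding genes. Of 14778 protein-coding genes 4901 were higher and 4915 lower, and of 5582 other or unannotated genes only 1070 and 1086. Direction also went with GC content. Genes averaging 3 or more in log2 CPM (11677) were split into GC quartiles. From low to high GC their median log2 fold changes were 0.07, 0.03, -0.06 and -0.09. In the lowest quartile 41.3% were higher in CBPi and 28.2% lower, and in the highest 28% and 42.4%. The part of GC content in the list counts and list medians below was not tested.

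**Figure D1:**
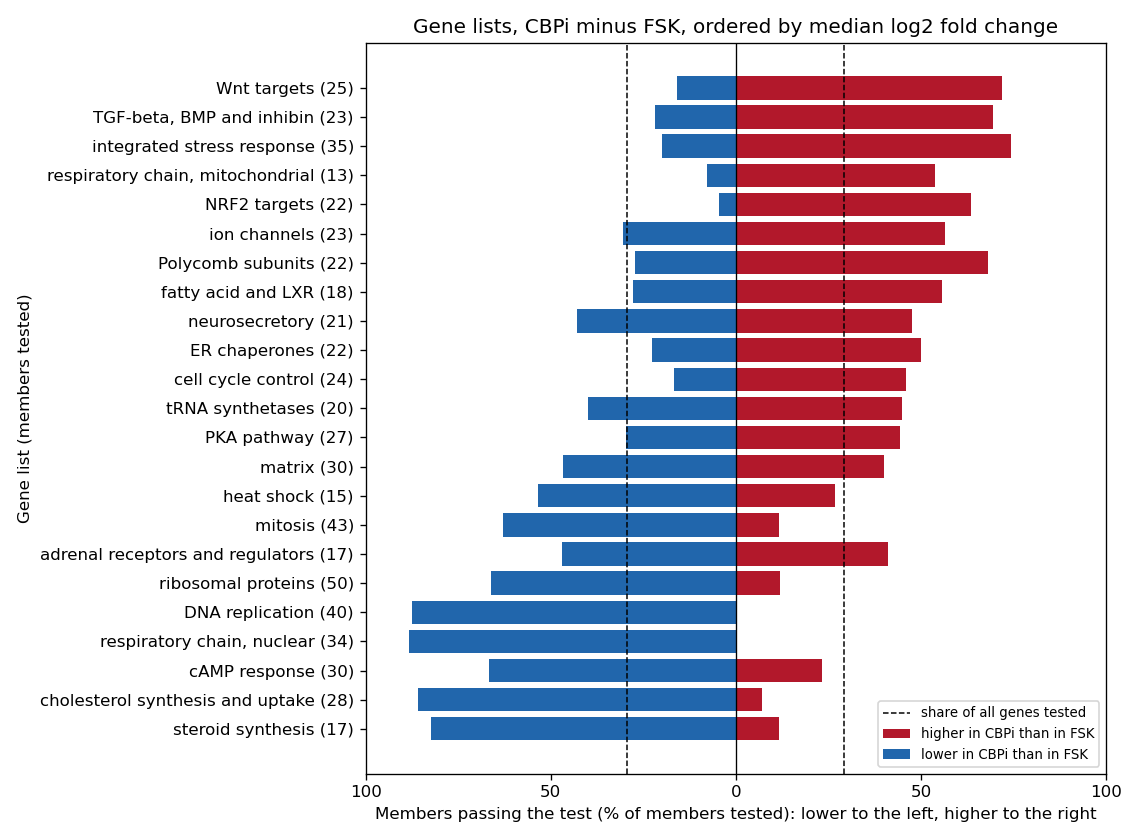
Share of members of 23 gene lists that passed the test in CBPi minus FSK (adjusted p of 0.05), in percent of members tested, lower in CBPi to the left and higher to the right. Dashed lines mark the shares of all genes tested, 29.5% lower and 29.3% higher; the steroid, cholesterol, cAMP response, nuclear respiratory and replication lists reach far past the left line, and the Wnt, BMP and integrated stress response lists past the right.

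Genes of steroid hormone synthesis were lower in CBPi than in FSK almost throughout, and some by more than 30-fold. Of 17 genes tested, 14 were lower and 2 higher, with a median log2 fold change of -2.27 against 0.0 for all genes. The list median was -1.91 in CBPi minus baseline and 0.91 in FSK minus baseline, 2 comparisons that share the baseline libraries. The list summed to 1099 to 1211 CPM in CBPi libraries, 4873 to 5103 CPM in FSK libraries and 2824 to 2951 CPM at baseline.

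CYP17A1, whose 17-hydroxylase and lyase steps lead to cortisol and androgens, had 4.22, 4.1 and 4.42 CPM in CBPi, 134, 136 and 139 CPM in FSK and 60, 64.9 and 65.3 CPM at baseline. The 3 groups did not overlap, and baseline lay between the agents. The log2 fold change of CBPi minus FSK was -5.00 ± 0.06 SE, 32-fold lower (adjusted p = 5.7e-22). HSD3B2, the dehydrogenase that every active adrenal steroid needs, had 3.44, 3.4 and 3.79 CPM in CBPi, 164, 159 and 163 CPM in FSK and 70.9, 81.4 and 83.1 CPM at baseline. It was again low in every CBPi library and high in every FSK library, 45.4-fold lower in CBPi (log2 fold change -5.50 ± 0.09 SE, adjusted p = 1.65e-20). Its counts were fractional in 10 libraries, and its close relative HSD3B1 can share its reads. CYP21A2, the 21-hydroxylase, had 85.5, 80.6 and 80.6 CPM in CBPi, 1262, 1257 and 1296 CPM in FSK and 293, 328 and 304 CPM at baseline. It was 15.5-fold lower in CBPi, with no overlap, but its counts were fractional in all 12 libraries and a near-identical pseudogene can share its reads.

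The early steps differed less. STAR, which carries cholesterol into mitochondria, had 151, 134 and 153 CPM in CBPi, 1244, 1200 and 1285 CPM in FSK and 651 to 666 CPM at baseline, 8.52-fold lower in CBPi. CYP11A1, which cuts the cholesterol side chain, had 64.6, 64.8 and 65.7 CPM in CBPi, 377, 347 and 371 CPM in FSK and 302 to 323 CPM at baseline, 5.61-fold lower in CBPi. For CYP11A1 the FSK libraries lay close above baseline and the CBPi libraries far below it. Its electron donors went the same way: ferredoxin, FDX1, averaged 61.3 CPM in CBPi and 254 CPM in FSK, and its reductase FDXR 114 CPM in CBPi and 548 CPM in FSK.

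The last steps of cortisol and aldosterone synthesis, CYP11B1 and CYP11B2, were close to the counting limit in CBPi. CYP11B2, aldosterone synthase, had 0.0485, 0.29 and 0.0696 CPM in CBPi (1, 7 and 2 counts), 11.6, 9.64 and 9.23 CPM in FSK and 0.912, 1.66 and 1.69 CPM at baseline. CYP11B1, 11β-hydroxylase, had 0, 4 and 0 counts in CBPi and 7.31, 7.82 and 6.46 CPM in FSK. Both passed, but CYP11B1 and CYP11B2 are near-identical neighbours whose counts were fractional in 9 libraries each, so reads may be split between them.

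A pair of genes passed in the other direction. AKR1C3, which reduces androstenedione to testosterone, had 33.2, 32.7 and 34.7 CPM in CBPi, 23.4, 20.2 and 19.3 CPM in FSK and 50 CPM on average at baseline. SULT2A1, which makes DHEA sulfate, had 10.6, 9.66 and 9.53 CPM in CBPi, 8.42, 8.65 and 7.17 CPM in FSK and 68.4, 75.2 and 78.8 CPM at baseline. SULT2A1 was thus far below baseline with either agent (log2 fold change -2.91 in CBPi and -3.19 in FSK, each minus baseline), and the agents differed by 0.29 ± 0.09 SE, a call lost without CBPi replicate 1 or FSK replicate 3. H6PD, which supplies NADPH in the endoplasmic reticulum, did not pass (0.13, adjusted p = 0.11).

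**Figure D2:**
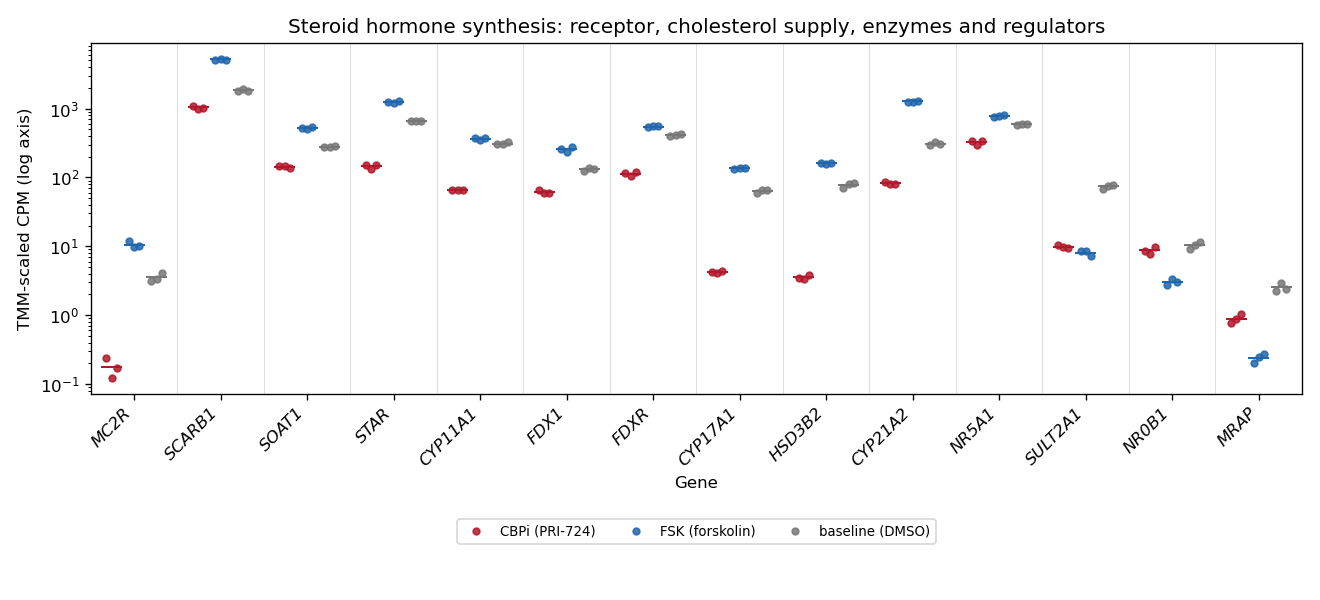
Levels of 14 genes of steroid synthesis in single libraries, in TMM-scaled CPM on a log axis, with CBPi left, FSK in the middle and baseline right for each gene; points are libraries and bars are means of 3. CBPi lies below FSK for the first 11 genes, while for SULT2A1, NR0B1 and MRAP it lies above FSK.

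The receptor and the regulators did not form a block. Of 17 adrenal receptors and regulators, 7 were higher in CBPi and 8 lower. MC2R, the ACTH receptor, had 0.242, 0.124 and 0.174 CPM in CBPi, 12, 9.64 and 10.1 CPM in FSK and 3.1, 3.35 and 4.14 CPM at baseline, 58.2-fold lower in CBPi (log2 fold change -5.86 ± 0.22 SE, adjusted p = 5.52e-15). MRAP, which brings that receptor to the cell surface, was higher in CBPi, at 0.775, 0.87 and 1.04 CPM against 0.205, 0.248 and 0.269 CPM in FSK, and both groups were below the 2.55 ± 0.37 CPM of baseline. NR5A1 (SF-1), the nuclear receptor that drives the steroidogenic genes, had 341, 292 and 337 CPM in CBPi, 762, 768 and 814 CPM in FSK and 581, 589 and 594 CPM at baseline, 2.42-fold lower in CBPi. NR0B1 (DAX-1), a repressor of NR5A1, had 8.67, 7.79 and 9.71 CPM in CBPi, 2.75, 3.31 and 3.05 CPM in FSK and 9.07, 10.3 and 11.6 CPM at baseline. For NR0B1 it was the FSK libraries that stood away from baseline, and CBPi minus baseline did not pass (-0.24, adjusted p = 0.0679). The X-linked gene FATE1 was 53.8-fold lower in CBPi (0.104 to 0.29 CPM) than in FSK (8.73 to 11 CPM), and FSK overlapped baseline (8.62 to 9.09 CPM). GATA4 and TBX3, transcription factors, did not pass.

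Genes that supply cholesterol, the substrate of all steroids, were mostly lower in CBPi as well. Of 28 genes of cholesterol synthesis and uptake, 24 were lower and 2 higher (median log2 fold change -0.85). SCARB1, the HDL receptor, had 1102, 986 and 1035 CPM in CBPi and 5070, 5247 and 5134 CPM in FSK, against 1840 CPM on average at baseline. Its groups did not overlap, and baseline lay between the agents. SOAT1, which stores cholesterol as esters, averaged 144 CPM in CBPi and 522 CPM in FSK, and the synthesis genes ACAT2, DHCR7 and IDI1 were lower in CBPi by 2.07, 1.76 and 1.64 on the log2 scale. The pair higher in CBPi, NPC1 (0.40) and NPC2 (0.67), moves cholesterol out of lysosomes. PMVK and TM7SF2 did not pass.

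The list of fatty acid genes and targets of the oxysterol receptor LXR went both ways, with 10 of 18 genes higher in CBPi and 5 lower. ABCG1, a sterol exporter, had 22.3, 21.8 and 21.5 CPM in CBPi, 1.11, 0.621 and 0.583 CPM in FSK and 5.41 to 5.88 CPM at baseline, 28-fold higher in CBPi (log2 fold change 4.81 ± 0.15 SE, adjusted p = 1.96e-16). ABCA1, its partner in export, had 45.9, 42.9 and 37.8 CPM in CBPi, 10.6, 10.9 and 9.86 CPM in FSK and 11 CPM on average at baseline. MYLIP, a ubiquitin ligase induced by LXR, and SREBF1, a regulator of lipid synthesis, were higher by 1.93 and 1.32. The LXR gene NR1H3 itself was lower in CBPi (-1.01 ± 0.17 SE), as was the desaturase gene FADS2 (-1.57). FASN, ACLY and ELOVL5 did not pass.

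Genes that answer to cAMP were lower in CBPi in 20 of 30 cases and higher in 7, with a median log2 fold change of -0.81. The list median was 0.10 in CBPi minus baseline and 1.10 in FSK minus baseline. NR4A1 encodes an orphan nuclear receptor induced by ACTH that acts on steroidogenic promoters. It had 204, 184 and 205 CPM in CBPi, 1088, 1109 and 1089 CPM in FSK and 316 to 335 CPM at baseline, 5.54-fold lower in CBPi (log2 fold change -2.47 ± 0.04 SE, adjusted p = 3.13e-20). Its relative NR4A3 had 21.7, 19 and 18.1 CPM in CBPi and 204, 211 and 224 CPM in FSK, against 61.3 CPM on average at baseline. NR4A1 and NR4A3 were below baseline in CBPi and above it in FSK, whereas NR4A2 stayed near baseline in CBPi (4.85 ± 0.46 CPM in CBPi and 4.69 ± 0.56 CPM at baseline) and was 15 ± 1.1 CPM in FSK. VGF, a secreted neuropeptide precursor, had 568, 385 and 592 CPM in CBPi, 8196, 8522 and 9025 CPM in FSK and 434 CPM on average at baseline, a log2 fold change of -4.06 ± 0.15 SE. Its CBPi libraries did not pass against baseline (0.25, adjusted p = 0.149). AREG, the EGF receptor ligand amphiregulin, had 0.291, 0.0829 and 0.383 CPM in CBPi, 6.9, 8.19 and 7.04 CPM in FSK and 0.296 CPM on average at baseline.

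CGA encodes the shared α-subunit of the glycoprotein hormones, a classic cAMP target. It had 0, 4 and 1 counts in CBPi, 8.09, 5.38 and 6.72 CPM in FSK and 2.74, 1.77 and 2.07 CPM at baseline. PDE10A, a phosphodiesterase that breaks down cyclic nucleotides, averaged 9.5 CPM in CBPi and 45.2 CPM in FSK. CREM, a CREB relative whose short forms repress cAMP targets, averaged 88.4 CPM in CBPi and 200 CPM in FSK. DUSP1 (-1.53), JUNB (-1.42) and EGR1 (-1.32) were also lower. EGR1 varied within both groups, from 107 to 151 CPM in CBPi and from 267 to 354 CPM in FSK, and did not overlap. FOS did not separate as widely, at 4.99, 6.26 and 9.36 CPM in CBPi and 10.4, 13.4 and 18.7 CPM in FSK, and its call was lost without CBPi replicate 2. INHBA, the activin βA-subunit, was nearly level between the agents at 39.5 ± 1.4 CPM in CBPi and 45.6 ± 2.4 CPM in FSK, and both lay far above the 4.11 ± 0.76 CPM of baseline. Its call was lost without CBPi replicate 3 or FSK replicate 2 and under library size scaling. The members higher in CBPi included KLF4 (1.54), PPP1R15A (1.23) and ATF3 (1.05), which stress pathways also induce, and PPARGC1A (1.64) and CREB3L1 (2.06). PDE4A, PDE8B and STC1 did not pass.

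**Figure D3:**
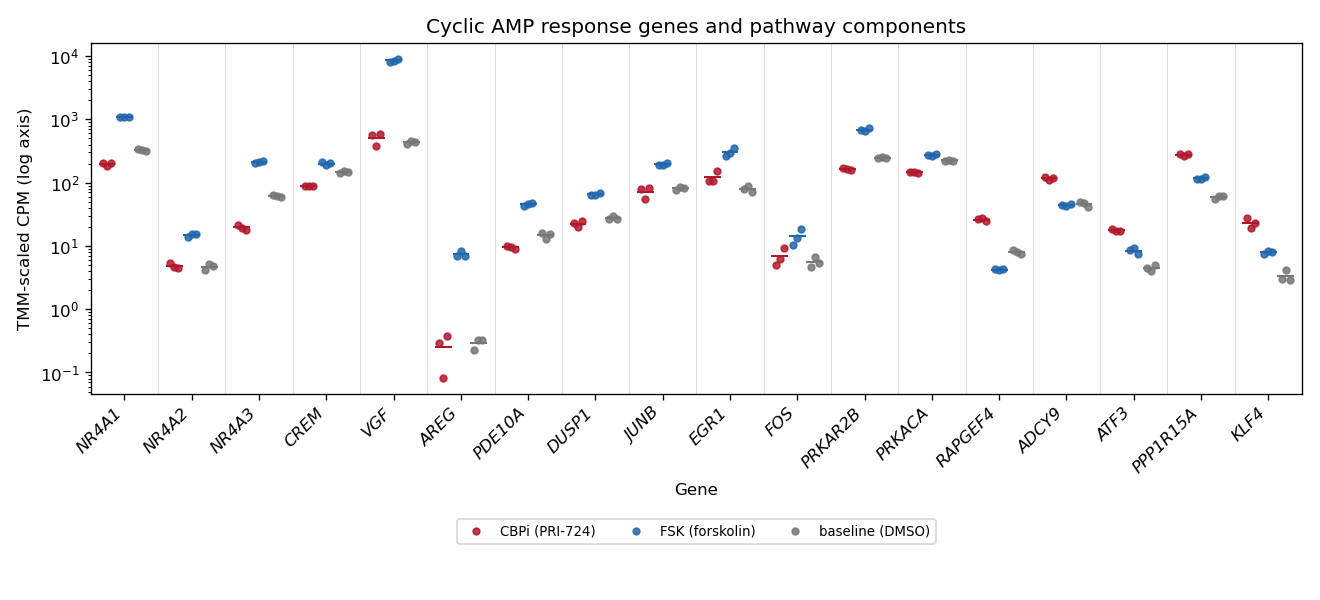
Levels of 18 cAMP response and pathway genes in single libraries, in TMM-scaled CPM on a log axis, with CBPi left, FSK in the middle and baseline right for each gene; points are libraries and bars are means of 3. VGF averages 515 CPM in CBPi, 8581 CPM in FSK and 434 CPM at baseline, while the last 3 genes and RAPGEF4 and ADCY9 are highest in CBPi.

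The cAMP response element (CRE), the palindrome TGACGTCA, reads the same on both strands. RefSeq promoter windows (GRCh38.p14, 250 bases before to 50 after a start site) were at hand for 476 of the 622 list and top-ranked genes, and a gene counts as holding a motif if any of its windows does. The CRE lay in windows of 8 of 28 genes of the cAMP list (28.6%) and of 614 of 27305 genes with a window (2.25%). That list was made of genes induced by cAMP through CREB, so its larger share follows from how it was made. Of those 8, CGA, VGF, AREG, DUSP1 and CREM were lower in CBPi, PPP1R15A was higher, PDE4A did not pass and SST was too low to test. The windows of 3 of them follow, with that of FN1, a gene described below that holds the same letters and was higher in CBPi. CRE matches are in capitals.
CGA (chr6:87095057-87095356, minus strand): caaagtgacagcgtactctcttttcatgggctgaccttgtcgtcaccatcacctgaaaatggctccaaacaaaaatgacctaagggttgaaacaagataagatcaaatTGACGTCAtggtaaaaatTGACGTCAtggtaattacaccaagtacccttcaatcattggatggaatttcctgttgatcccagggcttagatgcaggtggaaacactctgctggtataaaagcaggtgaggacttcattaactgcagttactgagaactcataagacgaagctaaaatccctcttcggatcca
VGF (chr7:101165520-101165819, minus strand): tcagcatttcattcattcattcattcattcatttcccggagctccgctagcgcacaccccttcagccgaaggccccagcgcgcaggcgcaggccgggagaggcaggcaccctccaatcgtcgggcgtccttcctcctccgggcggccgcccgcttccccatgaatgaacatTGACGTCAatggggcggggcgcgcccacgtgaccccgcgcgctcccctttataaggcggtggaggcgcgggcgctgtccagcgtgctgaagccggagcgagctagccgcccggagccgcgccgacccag
AREG (chr4:74444886-74445185, plus strand): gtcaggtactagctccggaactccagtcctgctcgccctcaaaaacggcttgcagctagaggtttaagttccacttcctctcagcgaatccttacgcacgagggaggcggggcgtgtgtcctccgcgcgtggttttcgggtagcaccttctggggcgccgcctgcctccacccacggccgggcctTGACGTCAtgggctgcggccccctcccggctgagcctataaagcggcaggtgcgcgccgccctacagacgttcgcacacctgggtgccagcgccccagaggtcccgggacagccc
FN1 (chr2:215436019-215436318, minus strand): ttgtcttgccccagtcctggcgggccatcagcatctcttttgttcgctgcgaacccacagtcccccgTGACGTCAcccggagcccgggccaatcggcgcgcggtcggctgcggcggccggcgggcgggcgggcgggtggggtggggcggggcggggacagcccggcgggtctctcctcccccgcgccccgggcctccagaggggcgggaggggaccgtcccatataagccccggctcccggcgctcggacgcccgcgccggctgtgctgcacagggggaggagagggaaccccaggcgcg
CGA holds a pair of CREs, at -142 and -124 from the start site, VGF holds one at -79, AREG at -65 and FN1 at -183. Of 469 tested genes with one, 32.8% were higher in CBPi and 35% lower, beside 32.9% and 32.5% of the 12660 tested genes that had a window. The core NR5A1 site CAAGGTCA was found, on either strand, in windows of 0 of 13 steroid list genes and of 1.6% of all genes with a window. A match in these letters is not shown to be a bound site.

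Components of the cAMP pathway moved both ways, 12 of 27 higher in CBPi and 8 lower (median 0.03). PRKAR2B, the RIIβ regulatory subunit of PKA, had 170, 167 and 161 CPM in CBPi, 674, 651 and 718 CPM in FSK and 248 CPM on average at baseline, 2.04 lower in log2 terms. The catalytic subunit gene PRKACA was lower by 0.90 (145, 148 and 144 CPM in CBPi, 270, 265 and 280 CPM in FSK). RAPGEF4 (EPAC2), a cAMP sensor that acts apart from PKA, had 26.2, 27.5 and 24.7 CPM in CBPi, 4.27, 4.1 and 4.35 CPM in FSK and 8.05 CPM on average at baseline. Its relative RAPGEF3 (EPAC1) was also higher in CBPi (1.93 ± 0.17 SE). So were the adenylyl cyclase gene ADCY9 (1.42), the PKA anchor AKAP12 and, to a lesser degree, CREBBP and EP300, which encode CBP and p300 (0.53 and 0.36). GNAS, the stimulatory G protein, differed by 0.09, a call lost without CBPi replicate 2 or 3 or FSK replicate 2 or 3 and with no gene filter. ADCY6, ATF1, AKAP1, PKIA and CRTC1 were among the 7 that did not pass.

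Wnt target genes were higher in CBPi than in FSK. Of 25 tested, 18 were higher and 4 lower, and the median log2 fold change of 1.29 was the highest of the lists plotted. The list median was 0.45 in CBPi minus baseline and -0.69 in FSK minus baseline. CTNNB1 itself hardly differed, at 1332 ± 24 CPM in CBPi and 1253 ± 17 CPM in FSK (0.09 ± 0.03 SE). Its call was lost without CBPi replicate 2 or 3, without any 1 FSK library and with no gene filter. AXIN2, a feedback inhibitor in the β-catenin destruction complex, had 174, 168 and 174 CPM in CBPi, 44.9, 46.9 and 46.5 CPM in FSK and 98.9 to 108 CPM at baseline, 3.73-fold higher in CBPi (log2 fold change 1.90 ± 0.04 SE, adjusted p = 3.6e-18). NKD1, another feedback inhibitor, had 1075, 965 and 1008 CPM in CBPi, 194, 211 and 206 CPM in FSK and 331 to 382 CPM at baseline. LEF1, a partner of β-catenin on DNA, was 2.44-fold higher in CBPi. For AXIN2, NKD1 and LEF1 baseline lay between the agents, with no overlap.

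Other Wnt targets were near baseline in CBPi and low in FSK. NOTUM, a secreted Wnt deacylase, had 42.9, 34 and 45.9 CPM in CBPi, 7.97, 7.7 and 8.92 CPM in FSK and 43 CPM on average at baseline. LGR5, an R-spondin receptor, had 14.1, 14.6 and 14.9 CPM in CBPi, 2.47, 2.77 and 2.73 CPM in FSK and 12.7 CPM on average at baseline. The Wnt inhibitor APCDD1 was higher by 2.34, ISM1 by 2.64 and the receptor FZD7 by 2.59. CCND1, cyclin D1, showed the reverse layout: 9.06, 9.57 and 9.19 CPM in CBPi, against 1.52, 1.95 and 2.6 CPM in FSK and 2.16 to 2.28 CPM at baseline. The 4 lower members were DKK1, a secreted Wnt antagonist (10.6, 8.87 and 9.78 CPM in CBPi, 30.7, 27.5 and 26.1 CPM in FSK), TCF7, SFRP1 and BIRC5. MYC did not pass (89.8 ± 5.2 CPM in CBPi, 82.9 ± 2.4 CPM in FSK, adjusted p = 0.0509), nor did TBX3 and NKD2. The miss of MYC was borderline. It passed without CBPi replicate 2 (adjusted p = 0.00546), under RLE or library size scaling (0.0464 and 0.00325) and under the stricter filter (0.0417). TBX3 passed under upper quartile scaling (0.0289). The TCF/LEF core ATCAAAG, on either strand, lay in windows of 1 of 13 Wnt list genes (7.69%) and of 3.18% of all genes with a window.

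BMP signalling genes ran beside them. In the TGF-β, BMP and inhibin list, 16 of 23 genes were higher in CBPi and 5 lower (median 0.86), and the 5 became 3 without CBPi replicate 3 or FSK replicate 2. The BMP antagonist NOG had 7.27, 5.47 and 8 CPM in CBPi, 0.205, 0.29 and 0.179 CPM in FSK and 2.59 to 2.94 CPM at baseline, 30.1-fold higher in CBPi. Noggin was not alone: the ligand BMP4 averaged 216 CPM in CBPi and 62.7 CPM in FSK, and the BMP target ID3 had 142, 118 and 148 CPM in CBPi, 27.2, 26.2 and 26.3 CPM in FSK and 81 CPM on average at baseline. ID1 (1.76) and the inhibitory SMAD7 (1.60) followed. Follistatin, FST, which traps activin, had 99.6, 98.4 and 110 CPM in CBPi, 20.3, 18.9 and 18 CPM in FSK and 54.8 CPM on average at baseline. INHA, the inhibin α-subunit and an adrenocortical marker, went the other way, with 1.6, 0.912 and 0.905 CPM in CBPi and 7.72, 9.39 and 9.37 CPM in FSK.

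**Figure D4:**
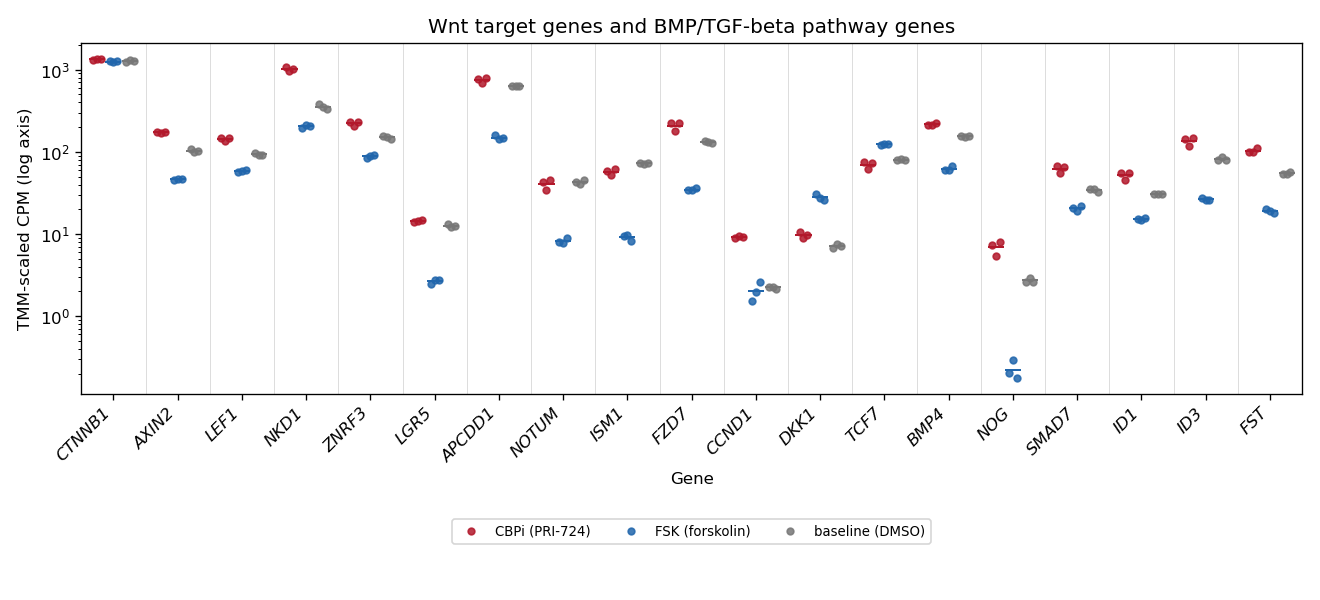
Levels of 19 Wnt and BMP/TGF-β genes in single libraries, in TMM-scaled CPM on a log axis, with CBPi left, FSK in the middle and baseline right for each gene; points are libraries and bars are means of 3. CTNNB1 is level across groups, DKK1 and TCF7 are highest in FSK, and the other genes are lowest in FSK, CCND1 with FSK libraries overlapping baseline.

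Genes of the integrated stress response, the program that the factor ATF4 runs when translation or amino acid supply is disturbed, were mostly higher in CBPi. Of 35 tested, 26 were higher and 7 lower (median 0.59). Both agents stood above baseline, with list medians of 1.73 in CBPi minus baseline and 1.11 in FSK minus baseline. NUPR1, a stress-induced chromatin protein, had 49.1, 42.7 and 51.5 CPM in CBPi, 3.41, 2.73 and 4.12 CPM in FSK and 4.62 CPM on average at baseline (log2 fold change 3.81 ± 0.11 SE, adjusted p = 9.97e-17). DDIT4, an inhibitor of mTORC1, had 83.5, 65.9 and 80.8 CPM in CBPi, 18.2, 17.8 and 18.5 CPM in FSK and 17.4 CPM on average at baseline. In both, FSK was close to baseline and CBPi was far above.

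Other members stood above baseline in both groups and were highest in CBPi. INHBE, an activin subunit, had 22.4, 20 and 22 CPM in CBPi, 4.68, 4.97 and 4.71 CPM in FSK and 1.58 CPM on average at baseline. SLC7A11, the cystine importer, had 314, 322 and 294 CPM in CBPi, 91.9, 101 and 93.2 CPM in FSK and 44.4 CPM on average at baseline, and its partner chain SLC3A2 was higher by 1.30. DDIT3 (CHOP), a proapoptotic factor, averaged 94.6 CPM in CBPi, 45.4 CPM in FSK and 16 CPM at baseline. ASNS, asparagine synthetase, had 91.8, 105 and 96.5 CPM in CBPi, 74.1, 72.7 and 68.5 CPM in FSK and 21.4 CPM on average at baseline. Not every member followed. GDF15 was level at 41.5, 29.9 and 41.2 CPM in CBPi and 38.7, 37.7 and 39.7 CPM in FSK, against 2.47 CPM on average at baseline. PYCR1 did not pass, and TRIB3 (-0.23), SLC1A4 (-0.41) and ATF4 itself (-0.16) were slightly lower in CBPi. VLDLR, a lipoprotein receptor, was 4.63-fold higher in CBPi although both groups were below baseline, with 20.3, 21.4 and 20.7 CPM in CBPi, 4.36, 5.38 and 3.68 CPM in FSK and 32.2 CPM on average at baseline.

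ATF4 binds TGATGNAA (N is any base), a motif found on either strand in windows of 8 of 28 stress response genes (28.6%), of 7 of 16 tRNA synthetase genes (43.8%) and of 4.46% of all genes with a window. The stress response list was made of ATF4 and CHOP targets, so its larger share follows from how it was made. The ASNS window is shown as the example, with the match, at -68 on the gene's own strand, in capitals.
ASNS (chr7:97872359-97872658, minus strand): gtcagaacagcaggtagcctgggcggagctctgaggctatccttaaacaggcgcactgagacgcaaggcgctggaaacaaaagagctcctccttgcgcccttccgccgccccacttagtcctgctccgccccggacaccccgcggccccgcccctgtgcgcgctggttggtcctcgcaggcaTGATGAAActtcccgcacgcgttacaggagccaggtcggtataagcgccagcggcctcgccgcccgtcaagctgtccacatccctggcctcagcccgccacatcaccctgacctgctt
Of 354 tested genes with the motif, 46.3% were higher in CBPi and 27.4% lower, with a median log2 fold change of 0.17. For all tested genes with a window the shares were 32.9% and 32.5% and the median 0.01. Genes with the TCF/LEF core leaned the same way, with 41.5% higher and 28.3% lower (median 0.11). Genes with the E2F motif TTTGGCGC leaned the other way, with 26.9% and 40% (median -0.11). The remaining motifs did not lean toward higher: the CRE as given above, the NR5A1 site with 31.2% and 35.6%, and the E2F motif TTTCGCGC with 32.2% and 37.8%. The part of GC content in these shares was not tested. The tRNA synthetases as a list went both ways, 9 of 20 higher and 8 lower. Those of alanine, tryptophan, glycine, asparagine and isoleucine (AARS1, WARS1, GARS1, NARS1 and IARS1) were higher by 0.40 to 0.55, and EPRS1 was lower by 0.87.

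Endoplasmic reticulum chaperones had list medians above baseline with either agent (0.53 in CBPi and 0.47 in FSK) and differed little between them, 11 of 22 higher in CBPi and 5 lower (median 0.11). HSP90B1, CALR, CANX and PDIA4 did not pass. The degradation factor SEL1L had 431, 427 and 412 CPM in CBPi and 198, 196 and 198 CPM in FSK, and HERPUD1 and EDEM1, of the same disposal route, were higher by 0.95 and 0.85. ERN1, the sensor IRE1α, was lower by 0.83.

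Targets of NRF2, the regulator of antioxidant and iron genes, were higher in CBPi in 14 of 22 cases, with 1 lower (median 0.45). HMOX1, heme oxygenase, had 245, 231 and 252 CPM in CBPi, 21.5, 18.9 and 21.4 CPM in FSK and 30.9 CPM on average at baseline (log2 fold change 3.56 ± 0.06 SE, adjusted p = 5.1e-21). The ferritin chains, which store iron, went with it. FTH1 had 2070, 1976 and 2137 CPM in CBPi, 802, 780 and 816 CPM in FSK and 809 CPM on average at baseline, and FTL had 999, 1062 and 979 CPM in CBPi and 388, 358 and 368 CPM in FSK. Both have many pseudogenes, and their counts were fractional in 12 and 10 libraries. NQO1, a quinone reductase, was higher by 0.88.

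The mitochondrial chaperonin pair was lower in CBPi by more than any other heat shock gene tested. HSPD1 (HSP60) had 445, 489 and 450 CPM in CBPi, 2283, 2169 and 2276 CPM in FSK and 1160 CPM on average at baseline (log2 fold change -2.28 ± 0.04 SE, adjusted p = 7.61e-20). HSPE1 (HSP10), its lid, had 48.5, 55.5 and 52.2 CPM in CBPi and 331, 281 and 291 CPM in FSK. Cytosolic chaperones differed less, with HSP90AB1 at -0.45 and HSPA8 at -0.31, while HSPB1 was higher by 0.93. In all, 4 of 15 genes were higher and 8 lower. HSPD1 and HSPE1 have processed pseudogenes, and their counts were fractional in 12 and 11 libraries.

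**Figure D5:**
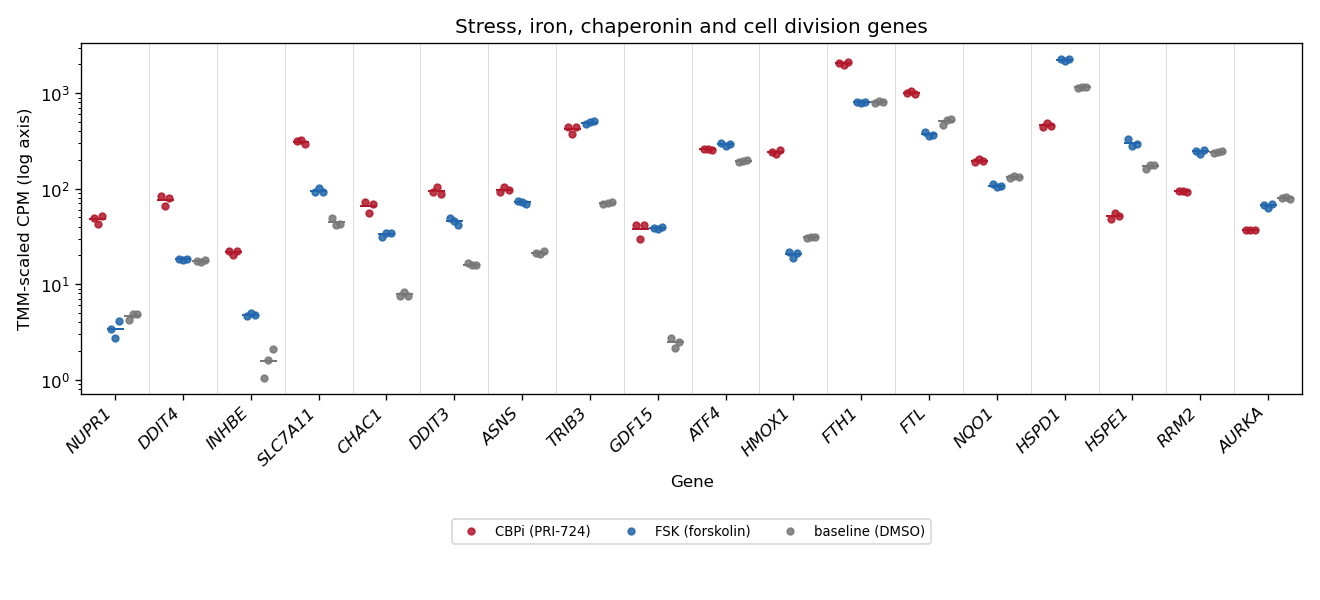
Levels of 18 stress, iron, chaperonin and cell division genes in single libraries, in TMM-scaled CPM on a log axis, with CBPi left, FSK in the middle and baseline right for each gene; points are libraries and bars are means of 3. NUPR1, DDIT4, HMOX1 and FTH1 are high in CBPi alone, GDF15 is level between CBPi and FSK, and HSPD1, HSPE1, RRM2 and AURKA are lowest in CBPi.

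Genes of DNA replication were lower in CBPi than in FSK in 35 of 40 cases and higher in 0, though by little (median -0.42, 5 past the 1.5-fold test). The list median was -0.55 in CBPi minus baseline and -0.11 in FSK minus baseline. RRM2, a subunit of ribonucleotide reductase, had 95.2, 93.5 and 93 CPM in CBPi, 248, 233 and 257 CPM in FSK and 243 CPM on average at baseline (log2 fold change -1.39 ± 0.04 SE). CDT1 and CCNE2, which license and start replication, were lower by 0.88 and 0.87, and PCNA, the polymerase clamp, by 0.40. MCM5, RFC4, RFC5, POLE and E2F1 did not pass. The E2F motifs TTTCGCGC and TTTGGCGC, on either strand, lay in windows of 6 and 8 of 35 replication genes and of 0.63% and 0.795% of all genes with a window.

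Mitotic genes differed less, 27 of 43 lower and 5 higher (median -0.20), and both agents were below baseline (-0.71 and -0.51 as list medians). AURKA, a spindle kinase, had 36.7, 37.1 and 36.5 CPM in CBPi, 67, 63.5 and 69.7 CPM in FSK and 80 CPM on average at baseline. MKI67, the proliferation marker, averaged 357 ± 6.4 CPM in CBPi, 434 ± 32 CPM in FSK and 561 ± 74 CPM at baseline, and the call between CBPi and FSK was lost without CBPi replicate 2 or FSK replicate 2 and under library size scaling. TOP2A, FOXM1 and CENPF were higher in CBPi by 0.23, 0.36 and 0.57. Among cell cycle regulators 11 of 24 were higher and 4 lower. CCND2, cyclin D2, had 29.6, 31.7 and 29.6 CPM in CBPi, 7.64, 8.53 and 8.7 CPM in FSK and 45.3 CPM on average at baseline, and the cell cycle inhibitor CDKN1A (p21) was lower by 1.01.

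Nuclear and mitochondrial genes of the respiratory chain parted. Of 34 nuclear genes, 30 were lower in CBPi and 0 higher (median -0.46), with CBPi below baseline (-0.50) and FSK near it (-0.07). ATP5F1B, the catalytic β-subunit of ATP synthase, had 980, 1008 and 1019 CPM in CBPi, 1674, 1599 and 1690 CPM in FSK and 1467 CPM on average at baseline. CYC1, UQCRFS1 and ATP5MC3 were each lower by 0.86. Of 13 mitochondrially encoded mRNAs, 7 were higher in CBPi and 1 lower. The lower one was MT-CO1 (-0.45), whose call was lost without CBPi replicate 1 or 3, without FSK replicate 1 or 2, and under upper quartile or library size scaling. MT-ND2 had 3757, 4765 and 3931 CPM in CBPi, 1347, 1458 and 1232 CPM in FSK and 1171 CPM on average at baseline. In all 13 of these mRNAs CBPi replicate 2, the library that stood apart, was the highest of the CBPi libraries. Without it, 5 were higher in CBPi and 1 lower, and MT-ND2 differed by 1.51 in place of 1.63. Ribosomal protein genes were lower in 33 of 50 cases and higher in 6 (median -0.27), led by RPL35 (-0.98), and only 3 passed the 1.5-fold test. How multimapped reads were handled is not known, and the part of reads shared with pseudogenes in these small differences was not tested.

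Matrix genes went both ways. Of 30 tested, 12 were higher in CBPi and 14 lower. FN1, fibronectin, had 997, 1013 and 947 CPM in CBPi, 94.5, 101 and 96.7 CPM in FSK and 106 to 114 CPM at baseline, 10.1-fold higher in CBPi. The matrix proteases MMP2 (63.6, 56.6 and 60.1 CPM in CBPi, 12.5, 10.1 and 12.3 CPM in FSK) and MMP14 (1.75) were higher as well. COL4A1, a basement membrane collagen, had 243, 213 and 224 CPM in CBPi, 617, 620 and 682 CPM in FSK and 319 CPM on average at baseline, its paired gene COL4A2 was lower by 1.16, and ITGA1, a collagen receptor, by 1.36. The laminin gene LAMA1 was lower by 2.29, whereas LAMA5, another laminin, did not pass. The fibroblast markers LUM and DCN, matrix proteoglycans, were lower in CBPi, LUM with 3, 0 and 1 counts in CBPi and 5.46, 4.1 and 4.26 CPM in FSK, while COL1A1, COL3A1, COL5A1 and FAP were higher.

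The 12 largest differences in each direction, among protein-coding genes with no overlap and a mean of at least 1 on the log2 CPM scale, took in genes of no list. CUX2, a homeodomain factor best known from cortical neurons, was the most abundant of those higher in CBPi, with 240, 208 and 223 CPM, against 5.83, 7.28 and 5.92 CPM in FSK and 35.1 to 40.4 CPM at baseline (log2 fold change 5.13 ± 0.08 SE, adjusted p = 1.01e-20). BMF, a proapoptotic BCL2 family member, had 79.9, 78.3 and 77.7 CPM in CBPi, 2.84, 3.27 and 2.91 CPM in FSK and 29.8 to 30.5 CPM at baseline. PROK1, a secreted factor that acts on endocrine gland endothelium, had 6.15, 7.83 and 8.28 CPM in CBPi, 0.124 to 0.247 CPM in FSK and 3.83 to 4.31 CPM at baseline. The transcription factor genes DLX3, ATOH8 and NFATC2 were higher by 5.21, 4.94 and 4.46, and ADAMTSL2, TRIM67 and SNCAIP by 5.05, 4.06 and 4.04. KCNC2, a potassium channel, was 24-fold higher in CBPi (8.58, 8.62 and 9.5 CPM in CBPi, 0.248 to 0.452 CPM in FSK), while CBPi minus baseline did not pass (-0.11).

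At the other end SPRR1B, a cornified envelope protein of squamous epithelia, had 0.0348 to 0.0969 CPM in CBPi, 13.4, 11.2 and 15.1 CPM in FSK and 0.883 to 0.912 CPM at baseline. GCNA, a germ cell nuclear protein, had 3.05, 3.15 and 3.34 CPM in CBPi, 220, 198 and 222 CPM in FSK and 6.3 to 8.16 CPM at baseline, 66.8-fold lower in CBPi (log2 fold change -6.06 ± 0.09 SE, adjusted p = 2.04e-21). FAM166B had 1.36, 2.28 and 1.91 CPM in CBPi, 161, 147 and 146 CPM in FSK and 36.7 to 41.4 CPM at baseline. The adhesion receptor ADGRD1, the vasoactive peptide UTS2 (urotensin 2), the protease CAPN8 and the bile acid and steroid transporter subunit SLC51A were lower by 6.84, 6.26, 6.04 and 5.72.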

How the data were processed

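Polyadenylated RNA of 12 NCI-H295R libraries was measured, in 4 groups of 3. STAR, featureCounts and the hg38 build are named in the submitters' processing notes; for their versions, the annotation, strandedness and multimapped reads, details were not given in the sources used here. Values deposited by the authors are estimated counts (expected counts) per gene, partly fractional (65.6% of non-zero values are whole within 1e-06), and a gene length column, which no test used. Counts were rounded. Symbols were found for 60261 of 60617 gene identifiers, and positions came from GENCODE release 29.

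Genes passing filterByExpr (20360) were fitted with edgeR 4.0.16 (R 4.3.3; TMM scaling, robust quasi-likelihood fit, 4 group means over all 12 libraries), contrast CBPi minus FSK, with Benjamini-Hochberg adjustment over all genes tested and a threshold of 0.05; glmTreat tested a fold of 1.5. The test was checked on simulated data. Levels are TMM-scaled CPM. No counting interval is given, since replicates set the errors. Groups came from the treatment labels.

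The members and the 27 gene lists were chosen with earlier results of these data known. Named genes are the 12 largest differences each way (mean log2 CPM of at least 1, no overlap), a core set, and up to 5 members with and 3 against each list's median plus members that did not pass; other named genes were chosen after their values were seen. Alternatives were RLE, upper quartile and library size scaling, looser and stricter filters, DESeq2 1.42.0, limma 3.58.1 (voom), the 6 compared libraries alone, stricter thresholds and each replicate left out. Promoters came from RefSeq (GRCh38.p14) and 6 motifs were searched on both strands. Some members of the lists are counted but not reported singly here.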

Additional observations from a re-analysis of the deposited data

How the results depend on the processing

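The direction of every gene called in the main comparison held under each alternative run that also called it. With a fold threshold of 2 in place of 1.5, 1367 genes passed, 737 higher and 630 lower. Leaving out each library in turn gave 11066 to 11745 calls for CBPi minus FSK (5489 to 5828 higher, 5577 to 5917 lower), 10854 to 11569 for CBPi minus baseline (5387 to 5711 higher, 5467 to 5868 lower), 9186 to 9694 for FSK minus baseline (4543 to 4832 higher, 4607 to 4862 lower) and 2850 to 3080 beyond 1.5-fold (1510 to 1680 higher, 1340 to 1400 lower). Library size scaling moved the median of all genes by 0.063 and put 57.1% of calls on the higher side, against 49.9%. DESeq2 called 11179 genes and limma voom 11904. Without CBPi replicate 2, 11012 of the main calls were also made. No paired analysis was possible because the labels give no replicate numbers that pair the libraries. Depth limits the size of the difference for genes with few counts in either group, such as CYP11B1, CGA and MC2R in CBPi and NOG and PROK1 in FSK.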

Other observations

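Ion channel and secretory genes, which set membrane potential and hormone release in endocrine cells, also differed between CBPi and FSK. Of 23 channel genes tested, 13 were higher in CBPi and 7 lower (median log2 fold change 0.44), and of 21 neurosecretory genes 10 were higher and 9 lower (median 0.14). KCNQ1, a potassium channel subunit, had 0.339, 0.249 and 0.348 CPM in CBPi, 4.48, 5.26 and 5.02 CPM in FSK and 0.594 CPM on average at baseline. KCNN4, a calcium-activated potassium channel, had 6.44, 4.14 and 5.46 CPM in CBPi, 0.205, 0.621 and 0.941 CPM in FSK and 0.216 CPM on average at baseline. CBPi and FSK did not overlap in either gene. CACNA1G, a T-type calcium channel, was higher in CBPi by 1.48, and ATP2B3, a calcium pump, was lower by 2.09. Among granule proteins CHGB, secretogranin 1, had 94.1, 91.1 and 95.3 CPM in CBPi, 19.7, 18 and 19.4 CPM in FSK and 47.9 CPM on average at baseline, whereas SCG2, secretogranin 2, was lower in CBPi by 1.97. CHGA did not pass.

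Polycomb complexes place repressive histone marks, among them methylation of histone H3 at lysine 27, which H3K27 demethylases remove. Of 22 genes of Polycomb subunits and these demethylases, 15 were higher in CBPi and 6 lower, by small amounts (median 0.24). CBX7, a reader of the mark, had 31.9, 31 and 30.8 CPM in CBPi, 14.9, 15.3 and 15.4 CPM in FSK and 24.3 CPM on average at baseline. The methyltransferase gene EZH2 was lower in CBPi by 0.23.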
